A study of Mus musculus with 32 samples.

Results

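The comparison is between the brains of WT (Dhcr7+/+) and KO (Dhcr7-/-) mouse embryos at E12.5, an embryonic day of midgestation. It concerns tissue that the labels' protocols call whole brain. Its members are the 8 libraries that the labels place at this stage, of 32 in the series, and all 55291 genes of their count table. There are 4 WT and 4 KO libraries, called WT 1 to WT 4 and KO 1 to KO 4 after the numbers in their labels. All 8 come from strain C57BL/6J, and the genotype is the only difference the labels name. The full series repeats the comparison at E14.5, E16.5 and on the day of birth (PND0), and it models Smith-Lemli-Opitz syndrome, a human disorder of cholesterol synthesis. The labels give neither litter nor sex, and nothing in them says how the Dhcr7 allele was made. They do not state that each library is a separate animal, so the p-values measure the spread between these libraries, which may be partly technical.

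DHCR7 reduces 7-dehydrocholesterol to cholesterol in the last step of the Kandutsch-Russell branch of the pathway. When sterols in the endoplasmic reticulum run low, the sensor SCAP lets the factor SREBP-2 move to the Golgi for activation, and SREBP-2 then raises the genes of cholesterol synthesis and uptake; INSIG proteins hold SCAP back when sterols are plentiful. LXR receptors respond to oxidised and some precursor sterols and raise genes of cholesterol export, among them Abca1 and Abcg1. At this age the brain is a set of vesicles of dividing neuroepithelium with its earliest neurons, wrapped in mesenchyme and skin that have to be dissected away.

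Total counts ran from 15.54 to 27.41 M in WT and from 13.87 to 16.63 M in KO. Levels are given as CPM, TMM-normalised counts relative to library size. Dhcr7 checked the labels in every library. It stood at 66.8, 71.4, 64.2 and 72.1 CPM in WT 1 to WT 4, and at 15.8, 22.9, 26.8 and 22.7 CPM in KO 1 to KO 4. No KO library reached a WT library. Brain identity was also clear in all 8: Sox2, a factor of neural progenitors, lay between 156 and 262 CPM, and the neuronal tubulin gene Tubb3 between 986 and 1785 CPM. The first principal component of the 2000 most variable genes held 54.7% of their variance and the second 17.3%, and WT 1 lay at the end of the first and KO 1 at the end of the second.

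KO 1 stood apart in the kind of RNA it held. The ribosomal RNA gene CT010467.1 was at 60107 CPM there, against 1921 to 3746 CPM in the other 7 libraries. Lars2, a mitochondrial leucyl-tRNA synthetase gene, was at 5673 CPM against 268 to 460 CPM. Rn7sk, a small nuclear RNA, was at 96.2 CPM against 3.05 to 7.10 CPM. Of 15791 genes averaging 1 CPM or more, 213 were at least 2-fold lower in KO 1 than in each of the other 7 libraries, and 21 were at least 2-fold higher. Hipk2, a kinase gene with a long transcript, was at 26.9 CPM in KO 1 against 117 to 136 CPM elsewhere.

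The genes that KO 1 gained and lost differed in length. Genes were divided into 4 equal classes by the length of their longest annotated transcript, which was known for 99.1% of the tested genes. In the shortest class (57 to 2065 nt) the median log2 level in KO 1 was 0.34 above the WT mean, in the next 0.11 above it, in the third 0.10 below it and in the longest (4749 to 123179 nt) 0.39 below it. The other 7 libraries stayed between -0.07 and 0.08 in every class. Lists and leading genes are therefore also given without KO 1.

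**Figure D1:**
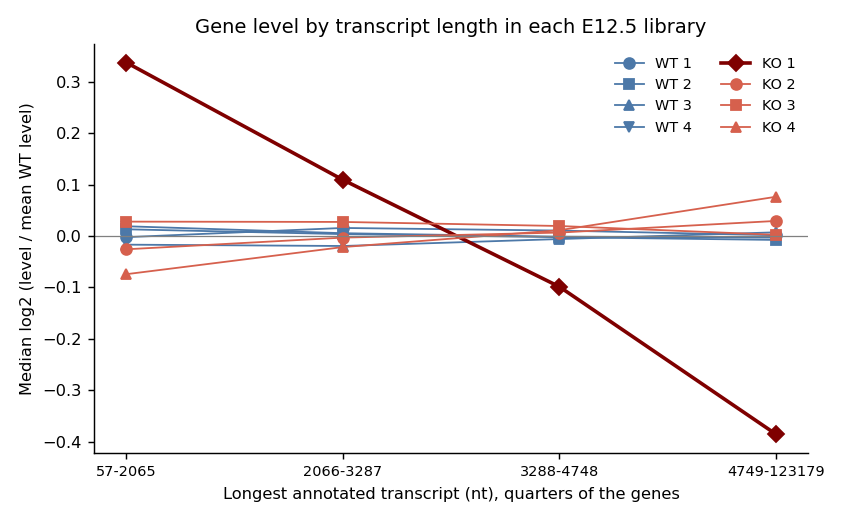
Median log2 ratio of gene level to the WT mean (y axis) by class of transcript length in nucleotides (x axis), 1 line per E12.5 library; blue, WT; red, KO; dark red diamonds, KO 1. KO 1 runs from 0.34 in the shortest class to -0.39 in the longest, and the other 7 lines stay between -0.07 and 0.08.

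WT 1 stood apart in tissue. It was at least 2-fold above each of the other 7 libraries in 226 of the 15791 genes and at least 2-fold below them in 5. It held the highest level of 13 of 14 skeletal muscle markers, 11 of 12 cartilage markers, 11 of 13 markers of mesenchyme and meninges and 11 of 12 markers of surface epithelium. The same library had the lowest summed level of 10 telencephalon markers, 591 CPM against 893 to 1247 CPM. The Y-linked gene Ddx3y stood at 67.8 CPM in WT 1, 51.6 CPM in KO 2 and 54.3 CPM in KO 4, and at 0 in the other 5, so 1 WT and 2 KO libraries carried it. With sex genes as a covariate, Dhcr7 and Abcg1 passed the adjusted threshold. In bulk tissue, fewer cells of a type and less RNA per cell cannot be told apart.

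The genotype difference was small in number of genes. With edgeR's quasi-likelihood test and Benjamini-Hochberg adjustment, 3 of 16948 genes passed an adjusted p of 0.05, or 0.0177% of those tested: Dhcr7 and Abcg1 fell (0.0118%) and Acte1 rose (0.0059%). Without KO 1, 4 of 17278 passed (0.0232%), the same 3 and Lss, which rose. At an unadjusted p under 0.05 there were 796 genes (4.7%), 258 higher and 538 lower in KO (1.52% and 3.17%), and without KO 1 there were 1479 (8.56%), 576 higher (3.33%) and 903 lower (5.23%). The groups did not overlap in 445 genes (2.63%), 238 of them higher in KO (1.4%) and 207 lower (1.22%). The biological coefficient of variation was 19.9% with all libraries and 17.3% without KO 1. The number called also depended on single libraries and on the tool. It was 1 without KO 2 or without KO 4, where only Abcg1 passed, and 2 without KO 3. It was 5 without WT 3, where Sult1e1 and Trim66 were added. DESeq2 called 23 genes, and limma voom with a quality weight per library called 14.

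The fall of Dhcr7 was incomplete. It averaged 68.6 ± 3.79 CPM (SD, n = 4) over the WT libraries and 22.03 ± 4.58 CPM (SD, n = 4) over the KO libraries, so that KO kept 32.1% of the WT level, or 35.2% without KO 1. The log2 fold change was -1.64 (SE 0.146, adjusted p = 0.00824), and without KO 1 -1.52 (adjusted p = 0.000654). The adjusted p was 0.0625 without KO 2 and 0.0558 without KO 4. The table counts whole genes, so it does not show which part of the transcript remained.

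Abcg1 codes for a transporter that moves cholesterol out of cells to lipoproteins. Its level was 22.9, 21.96, 23.0 and 22.9 CPM in WT 1 to WT 4 and 6.76, 7.41, 7.51 and 8.33 CPM in KO 1 to KO 4. Both groups were tight and far apart. The log2 fold change was -1.59 (SE 0.104, adjusted p = 0.000913), and without KO 1 it was -1.56 (adjusted p = 0.000654). Abcg1 passed in each of the 25 alternative fits. The gene lies at chr17:31057675-31117988 on the plus strand (GRCm38).

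Acte1, an actin family gene, had no count in any WT library and 29, 48, 63 and 56 counts in KO 1 to KO 4. These are 2.23, 3.21, 3.82 and 3.46 CPM. Set against 3 counts over the 4 WT libraries together, the most that a count of 0 allows, the KO level was at least 81.1-fold higher, and at least 89.2-fold higher without KO 1. The adjusted p was 0.0122 with all libraries and 0.0252 without KO 1, but 0.0932, 0.0923 and 0.0865 without KO 2, KO 3 and KO 4. It was also above the threshold with a covariate for sex genes (0.0615) or for the planned maturity score (0.0589), and the fit with a length offset did not hold Acte1, which had no length under that name. Acte1 is a neighbour of Dhcr7. In the GENCODE M21 annotation of GRCm38 it is listed as Gm498 at chr7:143866838-143900046, and it starts 18.4 kb past the end of Dhcr7 (chr7:143823145-143848410) on the same plus strand. Of 23 tested genes within 1 Mb of Dhcr7, Acte1 and Cars were at an unadjusted p under 0.05, where 4.7% of all genes were, and 13 were higher in KO. Nadsyn1, which runs away from Dhcr7 on the minus strand and starts 296 nt from the start of Dhcr7, was at 10.2, 11.8, 10.4 and 11.8 CPM in WT and 13.0, 10.6, 13.3 and 10.8 CPM in KO, where the groups overlap. The sources used here do not say whether the counting used strand.

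**Figure D2:**
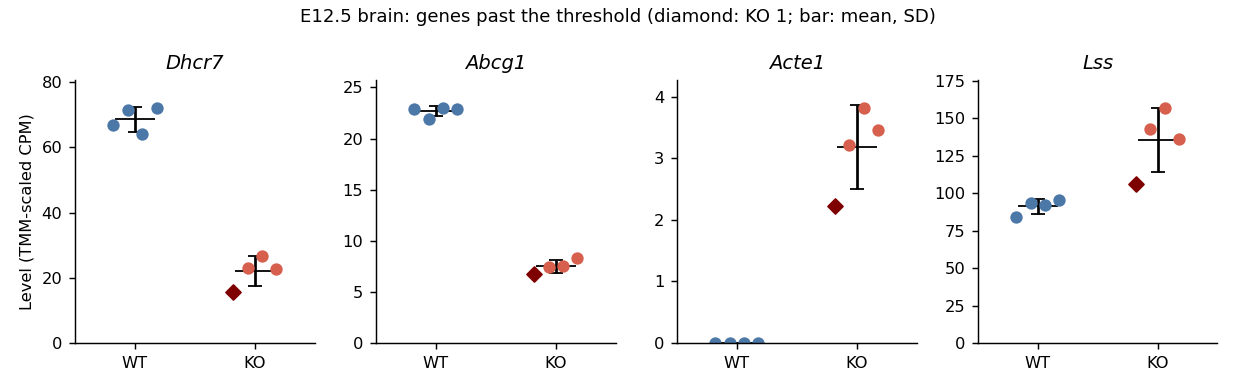
Level in TMM-scaled CPM (y axis) of Dhcr7, Abcg1, Acte1 and Lss in the 4 WT and 4 KO libraries at E12.5 (x axis); points, libraries; diamond, KO 1; bars, mean and SD. KO libraries lie below all WT libraries for Dhcr7 and Abcg1 and above them for Acte1 and Lss, and KO 1 is the lowest KO library in all 4 panels.

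The cholesterol synthesis list held 20 genes, without Dhcr7. All 20 were tested and all 20 were higher in KO, with a median log2 fold change of 0.48, against 0.003 over all 16948 genes, of which 8598 were higher. None of the 20 passed the adjusted threshold with all 8 libraries, 17 were at an unadjusted p under 0.05, where 1.52% of all genes were higher, and 15 were higher without overlap, where 1.4% of all genes were. Without KO 1 the median was 0.46 and 19 of 20 were higher. Then 17 were at an unadjusted p under 0.05 and 16 did not overlap, where 3.33% and 5.27% of all genes were higher in these ways. The median stayed between 0.40 and 0.54 in all 25 alternatives. DESeq2 called 10 of the 20, and 12 without KO 1. The median transcript length of the list was 3273 nt, in the middle of the range, and with an offset for length in each library its median log2 fold change was 0.48.

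The promoters of genes from this pathway are shown because the genes differed together, and that of Abca1 because it differed the other way. Each sequence is the 250 bases before the gene's start in RefSeq (GRCm38.p6), read 5′ to 3′ on the gene's strand. Capitals mark matches on either strand to CCAAT, the box of NF-Y, a partner of SREBP factors, or to TCACNCCAC, a form of the sterol element. The windows are chr13:119690101-119690350 (plus strand) for Hmgcs1, chr8:122443423-122443672 (minus) for Mvd, chr9:42264301-42264550 (minus) for Sc5d and chr4:53159896-53160145 (minus) for Abca1, and none overlaps an annotated exon.
Hmgcs1: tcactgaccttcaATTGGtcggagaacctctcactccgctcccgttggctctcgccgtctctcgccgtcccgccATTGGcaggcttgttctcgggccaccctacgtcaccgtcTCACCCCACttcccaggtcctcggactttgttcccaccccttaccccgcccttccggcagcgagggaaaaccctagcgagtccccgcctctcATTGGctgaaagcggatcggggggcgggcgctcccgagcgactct
Mvd: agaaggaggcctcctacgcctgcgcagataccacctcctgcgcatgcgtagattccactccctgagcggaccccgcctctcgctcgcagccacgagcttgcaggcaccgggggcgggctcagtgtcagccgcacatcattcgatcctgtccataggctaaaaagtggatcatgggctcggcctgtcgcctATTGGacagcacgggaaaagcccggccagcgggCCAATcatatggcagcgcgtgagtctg
Sc5d: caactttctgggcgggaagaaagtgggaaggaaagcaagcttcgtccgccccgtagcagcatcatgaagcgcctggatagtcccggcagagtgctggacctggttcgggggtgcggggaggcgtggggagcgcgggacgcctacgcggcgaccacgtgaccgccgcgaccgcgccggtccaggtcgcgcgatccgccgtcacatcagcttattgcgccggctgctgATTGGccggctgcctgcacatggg
Abca1: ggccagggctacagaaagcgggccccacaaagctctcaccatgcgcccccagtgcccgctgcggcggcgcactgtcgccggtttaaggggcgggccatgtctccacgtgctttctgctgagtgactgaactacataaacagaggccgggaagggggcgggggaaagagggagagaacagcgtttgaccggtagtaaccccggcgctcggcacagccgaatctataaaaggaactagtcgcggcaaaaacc
Hmgcs1 held 3 CCAAT boxes and 1 TCACCCCAC, which begins 137 bases before the start. Mvd held 2 CCAAT boxes, Sc5d 1 and Abca1 neither motif. Over all 32851 promoters in the table, 33.85% held CCAAT and 1.053% TCACNCCAC. Counted by gene, 37.5% of 27025 held CCAAT, against 14 of the 15 cholesterol synthesis genes with an entry, 6 of 7 sensing and uptake genes and 4 of 7 LXR targets. TCACNCCAC was found in 1 of these 15, 0 of 7 and 0 of 7. A match describes the letters and not a bound site.

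Hmgcs1, which makes the HMG-CoA that feeds the pathway, was at 306, 359, 364 and 395 CPM in WT 1 to WT 4. In KO 1 to KO 4 it was at 676, 598, 646 and 526 CPM. Every KO library was above every WT library, and KO 1 was the highest. The log2 difference was 0.78 (SE 0.114, adjusted p = 0.264), and 0.72 without KO 1 (adjusted p = 0.244). Acat2, the thiolase before it, differed by 0.53, also without overlap.

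The mevalonate steps were more uneven. The log2 difference was 0.46 for Mvd, 0.56 for the isomerase Idi1 and 0.63 for Fdps, each without overlap. Mvk stood at 46.5, 47.8, 41.8 and 48.7 CPM in WT and 75.6, 61.7, 62.2 and 46.3 CPM in KO, so KO 4 lay inside the WT range. Pmvk stood at 31.6, 36.6, 38.6 and 39.1 CPM in WT and 61.95, 40.01, 44.9 and 36.5 CPM in KO. Its difference of 0.33 came to 0.14 without KO 1.

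At the steps from squalene to lanosterol, Fdft1 differed by 0.57 and Sqle by 0.48, both without overlap. Lss, which closes the sterol rings, was at 84.4, 93.5, 92.1 and 95.4 CPM in WT 1 to WT 4. In KO 1 to KO 4 it was at 106, 143, 157 and 137 CPM. KO 1 was the lowest KO library and still above WT. The log2 difference was 0.57 (adjusted p = 0.723), and without KO 1 Lss passed at 0.66 (SE 0.069, adjusted p = 0.0402).

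After lanosterol, Msmo1, which removes methyl groups from the ring, was at 72.7, 87.3, 86.0 and 90.6 CPM in WT and 168, 136, 147 and 115 CPM in KO. The groups did not overlap, and the log2 difference of 0.75 was the second largest of the 20 after that of Hmgcs1. Cyp51 (0.54), Nsdhl (0.52), Tm7sf2 (0.40) and Hsd17b7 (0.31) were also higher without overlap.

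The genes next to Dhcr7 in the pathway were mixed. Sc5d, which makes 7-dehydrocholesterol, was at 66.5, 76.3, 77.8 and 71.8 CPM in WT and 87.9, 99.8, 99.4 and 99.2 CPM in KO. All KO libraries were higher, KO 1 the least. Ebp, a sterol isomerase, was at 10.8, 10.5, 10.2 and 12.3 CPM in WT and 16.9, 11.3, 10.7 and 11.04 CPM in KO. Its difference of 0.18 rested on KO 1 and was -0.01 without it. Lbr, a sterol reductase that also anchors chromatin to the nuclear envelope, differed by 0.09 with overlapping groups.

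**Figure D3:**
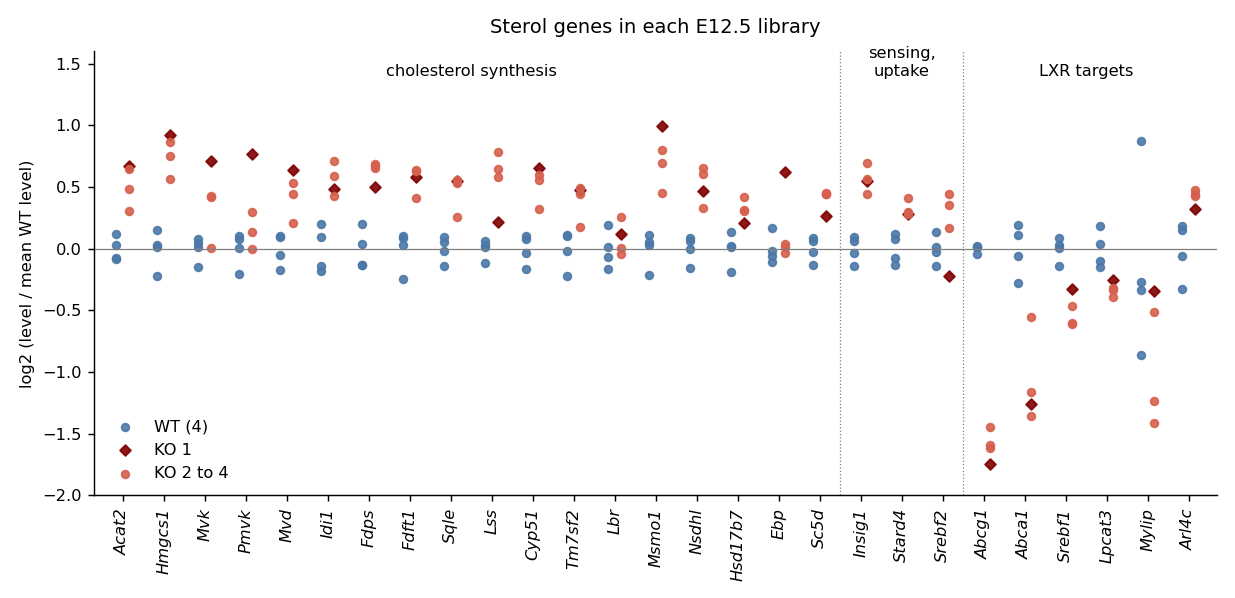
Log2 ratio of the level to the WT mean (y axis) for 18 genes of cholesterol synthesis and chosen genes of sterol sensing and uptake, and of the LXR target list (x axis) in each E12.5 library; blue, WT; red, KO 2 to KO 4; dark red diamonds, KO 1. Red points lie above the blue ones for Hmgcs1, Msmo1, Lss and Insig1, among others, and below them for Abcg1, Abca1, Srebf1 and Lpcat3.

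Of 11 genes of sterol sensing and uptake, 9 were higher in KO and 2 lower, with a median of 0.17, and of 0.08 without KO 1. None passed the adjusted threshold, and 3 were higher at an unadjusted p under 0.05, where 1.52% of all genes were. Insig1, which retains SCAP and is itself an SREBP target, was at 87.3, 94.0, 100.5 and 102.6 CPM in WT and 140.1, 142.3, 155.7 and 130.3 CPM in KO. The groups did not overlap (log2 difference 0.56, SE 0.087, adjusted p = 0.318). Stard4, a sterol carrier, differed by 0.32 without overlap. Srebf2, the gene of SREBP-2, was at 341, 350, 315 and 380 CPM in WT and 297, 470, 443 and 390 CPM in KO. KO 1 was below all WT libraries and the other 3 KO libraries above them, so the log2 difference was 0.21 with KO 1 and 0.31 without it (unadjusted p = 0.00680). The lysosomal exporter gene Npc1 was lower by 0.12, and higher by 0.02 without KO 1.

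The LXR target list did not move as a block: 6 of 11 were higher and 5 lower, and 1, Abcg1, passed the threshold. The median was 0.02, and -0.28 without KO 1. Abca1, which loads cholesterol onto apolipoproteins, was at 57.3, 51.0, 60.8 and 43.8 CPM in WT and 22.3, 23.8, 20.8 and 36.3 CPM in KO. The groups did not overlap, and KO 4 was nearest to WT (log2 difference -1.04, SE 0.185, adjusted p = 0.527; -0.99 without KO 1). Srebf1, the gene of the SREBP of fatty acid synthesis, was at 86.5, 90.2, 77.1 and 85.2 CPM in WT and 67.7, 61.6, 55.4 and 56.0 CPM in KO, also without overlap (-0.49, and -0.57 without KO 1). Lpcat3, which remodels phospholipids, differed by -0.32 without overlap. Mylip, a ubiquitin ligase gene, was at 34.6 CPM in WT 1 and between 7.15 and 15.7 CPM in the other 7, so its difference of -0.80 leaned on 1 WT library. Arl4c went the other way, at 89.2, 107, 124 and 126 CPM in WT and 140, 156, 151 and 150 CPM in KO without overlap (0.42). Apoe was at 84.6, 99.8, 90.6 and 82.5 CPM in WT and 147, 63.9, 67.9 and 90.6 CPM in KO. KO 1 was its highest library, and the sign of its difference turned with that library, from 0.04 to -0.28.

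Among 10 genes of fatty acid synthesis, Scd2, a desaturase, was the one at an unadjusted p under 0.05, at 1160, 1199, 1055 and 1255 CPM in WT and 924, 1051, 1044 and 920 CPM in KO. Every KO library was lower (-0.25, adjusted p = 0.875). Without KO 1, Acly, Fasn, Elovl6, Fads1 and Fads2 were at an unadjusted p under 0.05 and higher in KO, by 0.17 to 0.25, and in 4 of the 5 the remaining groups did not overlap. Over all genes 3.33% were higher at that p and 5.27% without overlap. Fasn shows what 1 library did: it was at 534, 593, 530 and 618 CPM in WT, at 360 CPM in KO 1, and at 661, 653 and 620 CPM in KO 2 to KO 4.

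Neural gene lists differed by little and none of their members passed the threshold. Of 15 proneural and Notch pathway genes, 14 were higher in KO with a median of 0.31, and without KO 1 all 15 with a median of 0.27; without WT 1 the median was 0.14. Gadd45g, a gene of newly committed neurons, was at 67.5, 97.9, 88.3 and 109 CPM in WT and 188, 114, 121 and 95.8 CPM in KO, where the groups overlap. Its difference of 0.51 came to 0.26 without KO 1. Dll3, a Notch ligand family gene, differed by 0.40 with overlap, and by 0.27 without KO 1. Of 15 early neuron genes 14 were higher (median 0.19), with the smallest p for Gap43 (0.29) and Stmn2 (0.27), and of 14 synapse genes 13 (median 0.21), with Nlgn3 and Syp at 0.21 each. Without KO 1 these medians were 0.27 and 0.29, and without WT 1 they were 0.11 and 0.03. Of 12 neural progenitor genes 10 were higher (median 0.14, and 0.13 without KO 1), and none was at an unadjusted p under 0.05. Fabp7 and Hes5, which had the smallest p among them, differed by 0.37 and 0.45, and by 0.24 and 0.19 without KO 1. WT 1 was the lowest library for Gap43, Stmn2, Nlgn3, Syp, Fabp7, Hes5, Dll3 and Gadd45g alike. Each gene was also fitted without WT 1 and with a covariate for tissue other than brain, but these values are not reported here for these genes. What the tissue in WT 1 contributed to the differences was not tested.

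Cell cycle genes were lower in 11 of 16 (median -0.06), and without KO 1 in 16 of 16 (median -0.13), but none was at an unadjusted p under 0.05 in either fit. Mcm2, a replication helicase gene, differed by -0.14. Mki67, a marker of dividing cells, was at 313 CPM in KO 1 against 464 to 561 CPM elsewhere, and differed by -0.21, and by -0.09 without KO 1.

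Hedgehog signalling depends on cholesterol bound to the ligand and the receptor, so its genes were listed too. Of 14 genes 4 were higher and 10 lower, with a median of -0.20, and of -0.10 without KO 1. Shh, the ligand gene, was at 13.96, 13.3, 12.7 and 17.3 CPM in WT and 21.4, 16.3, 18.8 and 15.4 CPM in KO (0.32, unadjusted p = 0.0515; 0.22 without KO 1). The targets Gli1 and Hhip were lower at an unadjusted p under 0.05, where 3.17% of all genes were, by 0.90 and 0.57 on the log2 scale. Gli1 was at 71.0 CPM in WT 1, 17.8 to 26.1 CPM in the other WT libraries and 15.98 to 21.8 CPM in KO, so the groups overlap. Hhip was at 3.775 to 7.35 CPM in WT, highest in WT 1, and at 2.715 to 4.34 CPM in KO, also with overlap. Neither gene was at an unadjusted p under 0.05 without KO 1. Of 12 Wnt targets 9 were lower (median -0.16, and -0.10 without KO 1), with Rnf43 at -1.11 and again highest in WT 1.

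Stress and signalling lists gave single genes. Atf4, a factor of the integrated stress response, was at 196, 186, 180 and 182 CPM in WT and 295, 197, 214 and 197 CPM in KO, without overlap but with KO 1 far above the rest (0.28, and 0.11 without KO 1). Trib3, one of its targets, differed by -0.65, and by -0.95 without KO 1. Pdk1, a kinase gene of the hypoxia list, differed by -0.32, and Junb, an immediate early gene, by -0.43 without overlap. None passed the adjusted threshold.

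Genes of tissue other than brain were lower in KO in the lists of muscle, surface epithelium, blood, mesenchyme and cartilage. The other tissue lists held markers of both directions. Of tested markers, 5 of 7 were higher in KO for choroid plexus, 4 of 10 for endothelium, 3 of 11 for sensory ganglion and 2 of 6 for eye. All 10 tested skeletal muscle markers were lower, with a median log2 difference of -2.11, as were all 12 of surface epithelium (-1.42), all 11 of erythroid cells (-1.05), all 13 of mesenchyme and meninges (-0.89) and all 10 of cartilage (-0.83). None passed the adjusted threshold; 8, 5, 2, 2 and 2 of them were at an unadjusted p under 0.05, where 3.17% of all genes were lower. Without KO 1 the medians were -2.56, -1.92, -1.47, -1.37 and -1.02. Then 7, 6, 8, 3 and 3 were at an unadjusted p under 0.05, where 5.23% of all genes were lower. Without WT 1 the medians of the same lists, in the same order, were -1.11, -0.77, -0.96, -0.33 and -0.32. With all libraries no marker of these lists was lower without overlap, where 1.22% of all genes were. These lists also took filters in part: 4 of 14 muscle and 2 of 12 cartilage markers were too low to be tested.

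The summed level of the 14 muscle markers was 270, 76.7, 38.6 and 30.1 CPM in WT 1 to WT 4 and 33.3, 38.3, 10.5 and 13.5 CPM in KO 1 to KO 4. WT 1 was far above the rest, and the groups overlapped. KO held 23.0% of the WT mean, 20.004% without KO 1 and 42.9% with WT 1 and KO 1 both left out. Myh3, an embryonic myosin, was at 65.1 CPM in WT 1 and 1.419 to 18.2 CPM in the other 7, and Ttn, the giant sarcomere protein, at 23.7 and 0.67 to 7.38 CPM.

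The 12 surface epithelium markers summed to 301, 146, 29.2 and 131 CPM in WT and 117, 14.49, 13.2 and 91.8 CPM in KO. Libraries of both genotypes were low: WT 3, KO 2 and KO 3. KO held 39.0% of the WT mean, 26.3% without KO 1 and 39.1% without WT 1 and KO 1. Krt14, a keratin of basal skin cells, was at 39.7, 12.7, 0.12 and 12.2 CPM in WT and 9.69, 0, 0 and 14.1 CPM in KO, so 3 of the 8 libraries held almost none of it. Krt18, a keratin of simple epithelia, differed by -1.64 and Grhl2, an epithelial factor, by -2.25.

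The 13 markers of mesenchyme and meninges summed to 4215, 2590, 1596 and 2189 CPM in WT and 2663, 771, 828 and 3051 CPM in KO. KO 2 and KO 3 were below all other libraries, and KO 4 exceeded all WT libraries but WT 1. KO held 69.0% of the WT mean, 58.5% without KO 1 and 72.9% without WT 1 and KO 1. Pdgfra, a receptor of mesenchymal and glial precursors, was at 218, 81.2, 44.7 and 57.6 CPM in WT and 57.1, 23.2, 21.01 and 63.3 CPM in KO, and Prrx1, a factor of limb and face mesenchyme, differed by -1.31. The 12 cartilage markers summed to 907, 454, 438 and 450 CPM in WT and 473, 314, 308 and 415 CPM in KO, where KO 1 was above 3 WT libraries. KO held 67.1% of the WT mean, and 61.5% without KO 1. The matrix genes Acan and Col9a1 differed by -1.78 and -1.52.

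Blood followed another library order. The 11 erythroid markers summed to 4772, 3877, 9199 and 2046 CPM in WT 1 to WT 4 and 4984, 1626, 1958 and 1887 CPM in KO 1 to KO 4. KO 1 held more than 3 of the WT libraries and the other 3 KO libraries less than any WT library. KO held 52.6% of the WT mean, and 36.7% without KO 1. Without KO 1, 8 of the 11 were at an unadjusted p under 0.05 and 6 did not overlap, where 5.23% and 3.81% of all genes were lower in these ways. The band 3 gene Slc4a1 was at 93.0, 67.5, 92.9 and 35.9 CPM in WT and 47.2, 24.7, 34.6 and 28.01 CPM in KO (-1.10, unadjusted p = 0.00531), and the haem synthesis gene Alas2 differed by -1.33. Markers of vessels and of macrophages differed less: their summed KO levels were 92.3% and 91.9% of WT, and 90.7% and 81.5% without KO 1. The macrophage sum was 119.5 CPM in KO 1, its highest library, and 65.4, 67.5 and 104.3 CPM in KO 2 to KO 4. In WT it was 88.7 to 101.2 CPM. The endothelial genes Cdh5 and Tek differed by -0.40 and -0.26, and the microglial receptor gene Cx3cr1 by -0.42.

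Genes of some organs were high in 1 or 2 libraries only, among those given here. Cryaa, a lens crystallin, was at 46.8 CPM in WT 1, 9.95 CPM in KO 2 and at most 0.25 CPM elsewhere. Oc90, an inner ear protein, was at 40.9 CPM in WT 1 and 11.6 CPM in WT 3, and at most 1.07 CPM in the other 6. Hoxb3, which marks hindbrain from its middle segments backward, was at 3.74 CPM in WT 1 and 0 in the other 7. The 14 markers of caudal hindbrain and spinal cord summed to 0.35 to 3.55 CPM in WT and 0.13 to 1.54 CPM in KO, all too low to be tested. The 10 hindbrain markers summed to 19.3 to 66.3 CPM in WT and 19.98 to 36.3 CPM in KO. Whole brain is the labels' name for the tissue, and how much hindbrain each library held was not tested. Alb, a liver product, was at 13.3 CPM in WT 2 and 6.30 CPM in KO 1, and at most 0.13 CPM elsewhere. The pancreatic enzyme gene Ctrb1 was at 77.5 CPM in WT 3, and at most 6.11 CPM elsewhere. Pou1f1, a pituitary factor, was at 0 in all 8. With WT 1 and KO 1 left out, the summed eye markers in KO were at 108% of WT, the ear markers at 90.1% and the sensory ganglion markers at 99.3%. The neural crest and Schwann cell markers went 2 ways. Their sum, most of it from Fabp7, which progenitors also express, was 118% of WT, while Erbb3 (-2.54) and Sox10 (-2.15) were lower and highest in WT 1.

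**Figure D4:**
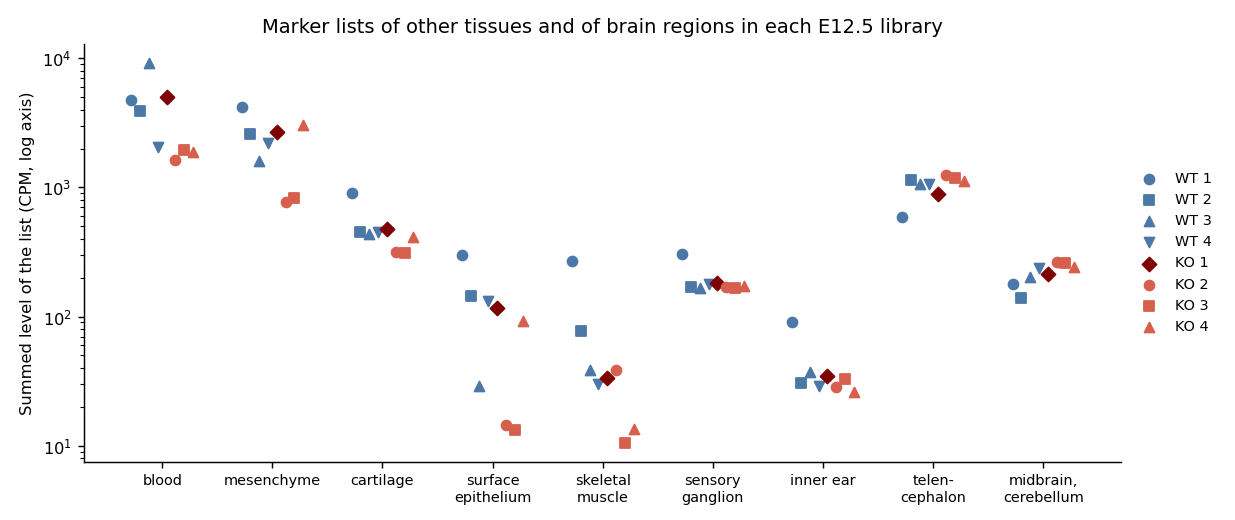
Summed level in CPM on a log axis (y axis) of marker lists of other tissues and of brain regions (x axis) in each E12.5 library; blue, WT; red, KO; dark red diamonds, KO 1. WT 1 is highest for muscle (270 CPM), epithelium (301 CPM), cartilage (907 CPM) and inner ear (90.02 CPM) and lowest for telencephalon (591 CPM), while blood is highest in WT 3 (9199 CPM).

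Much of the wider list of lower genes had WT 1 at its top. Of the 538 genes lower in KO at an unadjusted p under 0.05, WT 1 was the highest library in 434 (80.7%), WT 2 in 48, WT 3 in 33 and WT 4 in 23. Of the 258 higher ones, WT 1 was the lowest in 178 (69.0%), WT 2 in 33, WT 3 in 30 and WT 4 in 12. KO 1 was the highest in 131 of these 258 (50.8%), KO 2 in 72, KO 3 in 42 and KO 4 in 13. Over all 16948 tested genes WT 1 was the highest in 22.6% and the lowest in 17.8%, and KO 1 the highest in 26.5%. Picking genes lower in KO favours a WT library at the top, so these shares are not on 1 scale. A covariate was made from 45 markers of epithelium, muscle, cartilage and mesenchyme. With it, 67 of the 538 and 80 of the 258 kept an unadjusted p under 0.05, while Dhcr7, Abcg1 and Acte1 passed the adjusted threshold as before. The covariate was made from the same 8 libraries, and some of its markers are among the 538. Its values ran from 2.86 to 5.31 in WT and from 1.41 to 3.75 in KO, so it went partly with genotype. A loss of genes was thus partly built in, and what other tissue contributed was not tested. Without WT 1, 171 and 103 kept an unadjusted p under 0.05. Leaving out other libraries also changed the 796 genes at that p. There were 325 without WT 1, 467 without WT 2, 458 without KO 2 and 415 without KO 3. There were 1565 without WT 3, 943 without WT 4, 1479 without KO 1 and 1200 without KO 4. Genes at the WT 1 end of the first principal component were of this kind: Barx1 and Pax9, factors of the jaw and palate, were at 44.2 and 20.9 CPM in WT 1, and at most 0.33 and 0.13 CPM in KO 2 to KO 4. They were also low in WT 3, at 0.70 and 0.58 CPM, and stood at 3.38 and 2.075 CPM in KO 1, so the groups overlap. Barx1 differed by -3.91, by -6.05 without KO 1 and by -0.89 with the tissue covariate. Cldn6, an epithelial claudin, and Gsc, a factor of the embryonic head, differed by -2.64 and -2.51, and by -4.13 and -5.11 without KO 1.

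Not every lower gene was highest in WT 1. Beside the sterol genes, B4galnt3, Ckmt1, Eya1 and Gm7240 had the smallest p among genes lower in KO without overlap. Ckmt1, a mitochondrial creatine kinase, was at 9.78, 11.5, 8.13 and 10.7 CPM in WT and 6.995, 5.48, 5.81 and 6.54 CPM in KO, where WT 2 and not WT 1 was the highest (-0.70, unadjusted p = 0.00123). Eya1, a cofactor of sensory placodes, was at 30.3, 19.2, 12.49 and 16.99 CPM in WT and 10.5, 9.35, 9.39 and 10.5 CPM in KO (-0.99). B4galnt3, a sugar transferase, differed by -2.28 at 0.31 to 4.61 CPM. WT 1 was the highest library for Eya1 and B4galnt3, and WT 2 for Ckmt1 and Gm7240.

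Markers of brain regions also differed between libraries. All 10 telencephalon markers were higher in KO (median 0.19, and 0.30 without KO 1), but without WT 1 the median was -0.004. All 10 markers of the ganglionic eminences were higher (median 0.27, 0.37 without KO 1 and 0.15 without WT 1), with Nkx2-1, a factor of its medial part, at 0.39. For the midbrain and cerebellum list the median was 0.35 with 9 of 11 higher, 0.24 without KO 1 and 0.29 without WT 1. En1, which marks the boundary of midbrain and hindbrain, was at 16.6, 12.6, 17.6 and 21.7 CPM in WT and 24.4, 21.8, 24.4 and 23.1 CPM in KO, without overlap (0.45, unadjusted p = 0.0164; 0.41 without KO 1). Gbx2, a factor of the hindbrain and thalamus, was at 8.97, 9.53, 15.9 and 14.6 CPM in WT and 17.1, 18.8, 17.7 and 18.1 CPM in KO, also without overlap (0.55, and 0.56 without KO 1).

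Maturity was read from genes that change with age in WT brains of later stages. The score is the mean log2 CPM of 500 genes that increase minus that of 500 genes that decrease from E14.5 to PND0. No E12.5 library entered the test that ranked these genes. Only genes averaging 1 CPM or more over the 8 E12.5 libraries could be chosen, so those libraries did filter them. The score was -2.71, -2.72, -2.15 and -2.57 in WT 1 to WT 4 and -2.86, -2.38, -2.66 and -2.22 in KO 1 to KO 4. On this score WT 3 and KO 4 were the most mature and KO 1, the library that was also apart in transcript length and RNA kind, the least; what those properties did to its score was not tested. The groups overlapped. The genotype means differed by 0.01, and by 0.12 without KO 1. With genes chosen between E12.5 and E14.5, KO 2 (-0.38) and KO 4 (-0.40) were the most mature and KO 1 (-1.05) again the least, and the means differed by 0.04, and by 0.19 without KO 1. With genes chosen between E12.5 and E16.5 these differences were 0.07 and 0.20. For the last 2 scores, E12.5 WT libraries also entered the test that ranked the genes. On the score from E14.5 to PND0 the range over the 8 libraries was 0.71, and 0.58 without KO 1. The range of 0.71 is 51.9% of the step from the E12.5 to the E14.5 WT mean. With genes chosen between E12.5 and E14.5 the range was 0.66 (31.0% of that score's step). With genes chosen between E12.5 and E16.5 it was 0.75 (45.7%). A score from genes that change between E14.5 and E16.5 could not be used for this, since E12.5 WT (mean -1.34) lay above E14.5 WT (-2.06) on it. With the PND0 score as a covariate, 427 of the 538 lower and 243 of the 258 higher genes kept an unadjusted p under 0.05, and 4 genes passed the adjusted threshold, the added one being Fam107a.

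**Figure D5:**
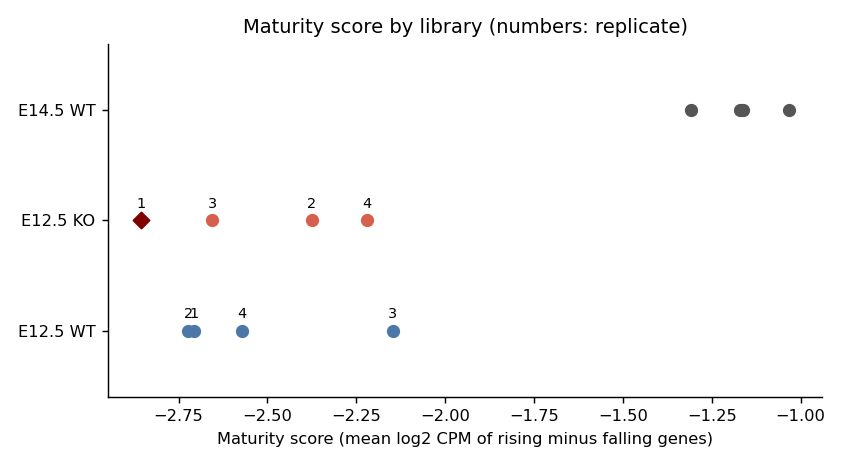
Maturity score, the mean log2 CPM of genes rising minus that of genes falling from E14.5 to PND0 in WT (x axis), for the libraries of E12.5 WT, E12.5 KO and E14.5 WT (y axis); numbers, replicates; diamond, KO 1. E12.5 libraries spread from -2.72 to -2.15 in WT and from -2.86 to -2.22 in KO, below the E14.5 WT mean of -1.17.

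Leaving KO 1 out kept the direction of 77.2% of the 16948 genes tested in both fits. Of the 796 genes at an unadjusted p under 0.05, 516 stayed so without KO 1, all in the same direction, 154 higher and 362 lower. Beyond the 4 genes past the adjusted threshold, the smallest p without KO 1 belonged to Srebf1, Hmgcs1, Insig1, Sc5d, Msmo1 and Fdft1, of which Srebf1 is lower and the others higher. The number of genes without overlap went from 445 to 1569 (9.08%), 910 higher (5.27%) and 659 lower (3.81%). Groups of 3 and 4 libraries overlap less often by number alone than groups of 4 and 4, so the counts are not on 1 scale.

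The KO difference at E12.5 was set against that at E14.5 in 1 fit of 16 libraries. No gene of 18408 passed with edgeR, and 1001 were at an unadjusted p under 0.05 (5.44%). The smallest p was that of Dhcr7, which was less reduced at E12.5 by 0.79 on the log2 scale (SE 0.155, adjusted p = 0.828). Its KO levels at E14.5 were 13.1, 12.8, 12.0 and 14.6 CPM, below all E12.5 KO libraries, while WT levels at E14.5 were 68.7 to 70.5 CPM. KO 1 was the E12.5 library nearest to the later KO level. Without KO 1 the difference was 0.88 and passed (adjusted p = 0.00189), and without WT 3 Aldh1a3 and Trim66 passed in place of it. Next in order of p were Gstm1, a glutathione transferase (-0.75), Eya1 (-1.13), Rgs11, a regulator of G protein signalling (-1.57), and Plk3, a stress-responsive kinase (0.54). Gstm1 was at 14.7, 13.4, 9.64 and 14.2 CPM in WT and 8.99, 9.15, 7.81 and 7.78 CPM in KO at E12.5, and at 12.9 to 15.4 and 14.3 to 17.6 CPM at E14.5. For the sterol genes the 2 stages stood side by side as follows. Hmgcs1 differed by 0.78 at E12.5 and 0.48 at E14.5, Msmo1 by 0.75 and 0.51, Lss by 0.57 and 0.36, Abcg1 by -1.59 and -1.65, Srebf1 by -0.49 and -0.56 and Abca1 by -1.04 and -0.52, and none of these changes with stage passed.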

How the data were processed

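RNA from whole brain was polyA-enriched and sequenced as paired 150-base reads on a NovaSeq, per the labels' protocols. The authors deposited raw counts per gene symbol, whole numbers that are not normalized. HISAT2, SAMtools, featureCounts and DESeq2 and the build mm10 are named in the submitters' processing notes, with no versions. Groups follow the labels. Gene positions come from GENCODE M21 (GRCm38) and promoters from RefSeq (GRCm38.p6).

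The 8 libraries were fitted with edgeR 4.0.16 in R 4.3.3: TMM scaling, filterByExpr (minimum count 10, total 15), robust quasi-likelihood F test, Benjamini-Hochberg adjustment over all genes tested, threshold 0.05. A standard error is the log2 difference divided by the square root of F. Log2 CPM uses a prior count of 2. A count of 0 allows up to 3 counts, 0.109 to 0.216 CPM by library, for counting error only. No pair of libraries in a group agreed within counting noise (chi-square per degree of freedom 5.57 to 115). The E14.5 comparison used 16 libraries. The code was tested on simulated counts with known changes.

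Named genes are Dhcr7, genes past the threshold with or without KO 1, the 8 genes in each direction with the smallest p among those without overlap, all sterol genes, the 2 members of each other list with the smallest p, the 5 with the smallest p against E14.5, and genes that set KO 1 or the first component apart. Some of these genes are given by count only, and some are not reported here. The members and the gene lists were chosen with earlier results of these data known. Other genes singled out, such as Alb, Cryaa and Fasn, were chosen after their values were seen.

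Alternatives were RLE size factors, other filters on low counts, DESeq2 1.42.0, limma 3.58.1 voom with sample weights, each library left out, combinations of these without KO 1, 1 fit of all 32 libraries, a replicate block, and sex-gene and maturity covariates. Chosen after seeing the data were the later-stage maturity scores and covariate, the tissue covariate, WT 1 and KO 1 both left out, and the length offset.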

Additional observations from a re-analysis of the deposited data

Results flagged for a closer look

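In 15 of 150 groups of 4 libraries, 1 library lay apart from the other 3 by more than Dixon's critical value of 0.829 (the gap to its neighbour over the range). Chance alone gives about 1 in 20 such groups, the checks share libraries, and no cause was tested.

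WT 1 was the one in 6 of the 15. Its summed level was the highest in WT for cartilage (907 CPM, next 454), eye and lens (113.5 CPM, next 32.3), sensory ganglion (305 CPM, next 179), inner ear (90.02 CPM, next 37.2) and hindbrain (66.3 CPM, next 23.9). It was the lowest for telencephalon (591 CPM, next 1060).

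KO 1 was the one in 4. It was the highest in KO for erythroid genes (4984 CPM, next 1958), for RNAs without a polyA tail (60200 CPM, next 3370) and for Ebp (16.9 CPM, next 11.3), and the lowest for Sc5d (87.9 CPM, next 99.2).

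The other 5 were close to the rest of their groups in size. WT 2 was highest for the summed LXR targets (486 CPM, next 474) and lowest for Abcg1 (21.96 CPM, next 22.9). KO 4 was lowest for Sqle (202 CPM, next 244) and Tm7sf2 (39.7 CPM, next 47.8), and KO 3 highest for Stard4 (68.4 CPM, next 63.5).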

How the results depend on the processing

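Depth (13.87 to 27.41 M counts) limits low genes, and 4 libraries a group limit the calls. The count of 3 called genes was 23 with DESeq2, 14 with voom weights and 52 with all 32 libraries in 1 fit. Without KO 1 it was 13 with no filter on low counts, 63 with DESeq2 and 11 with voom weights. Leaving out 1 library gave 1 to 5 genes, and 0 to 2 for the comparison with E14.5. In 10 more alternatives, among them RLE size factors and the tissue, sex, maturity and length adjustments, it was 2 to 4, and with the replicate block it was 6. The cholesterol median moved by less than the spread between libraries in all 25.

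The labels number replicates 1 to 4 in both groups. Deviations of same-numbered libraries correlated at 0.379, -0.167, 0.411 and -0.207. Of 4 KO libraries, 2 correlated best with the WT library of their own number. So few values neither show that the numbers pair the libraries nor exclude it. With the replicate block 6 genes were called, Barx1, Pitx1 and Pax9 beside the 3, and 0 against E14.5.

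Of 103 genes with a printed difference, 7 changed sign somewhere; the cause was not tested. With KO 1 left out these were Apoe (-0.28; -0.27 with RLE or DESeq2, -0.28 with no filter, -0.40 with voom weights, -0.30 without WT 1 too), Ebp (-0.0090; -0.000467, -0.00251, -0.00327, -0.0377 and -0.013 in the same settings) and Npc1 (0.024; 0.033, 0.037, 0.031, 0.037 and 0.076). With voom weights and all libraries they were -0.35, -0.018 and 0.025. Apoe also turned with the replicate block (-0.0333), the planned maturity covariate (-0.091) and the length offset (-0.062). Fasn, at 0.012, turned with a mean of at least 1 CPM (-0.000391), the replicate block (-0.025), the sex covariate (-0.034), the later maturity covariate (-0.012), the tissue covariate (-0.20) and without WT 1, WT 3, KO 2, KO 3 or KO 4 (-0.060 to -0.017). Leaving out 1 library at a time gave -0.28 to 0.19 for Apoe, -0.0090 to 0.25 for Ebp, -0.060 to 0.17 for Fasn and -0.21 to 0.024 for Npc1. With the tissue covariate Acly (-0.0068), Mylip (0.0068) and Prrx1 (0.059) turned.

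Taken as summed CPM in place of the median of members, the log2 level difference was 0.23 for neural crest, -0.12 for endothelium, -1.40 for caudal hindbrain and spinal cord and 0.84 for RNAs without a polyA tail.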
